A study of Mus musculus with 30 samples.

Results

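The genes described here are 8 genes of the stress arrest program. They include the 3 members of the Gadd45 family (Gadd45a, Gadd45b and Gadd45g) and the antiproliferative genes Btg1 and Btg2. The others are the polo-like kinase gene Plk2, the ectodysplasin receptor gene Eda2r and the p53 ligase gene Mdm2. All 8 were chosen by symbol, with earlier results of these data known, out of 18781 genes with a probe set naming them alone. Each of the 8 was read by exactly 1 of the 28815 probe sets on the array. The samples came from male C57Bl/6 mice aged 10 to 12 weeks: 5 mice without food for 24 h from the start of the light phase, and 5 control mice with free access to chow over the same 24 h. The methods describe the mice as wild type and of the J substrain. The labels give no transgene, drug or other treatment for either group. RNA came from the epididymal white fat (WAT), the liver (LIV) and skeletal muscle of the thigh (SM) of each mouse. It was hybridized to Affymetrix Mouse Gene 1.1 ST arrays, 1 array per mouse and tissue. With 30 arrays in all, there were 6 groups of 5 arrays. Values are deposited log2 RMA values, a log2 scale of probe set brightness on which a difference of 1 is a 2-fold difference, and they compare arrays for 1 gene but not 1 gene with another.

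Gadd45 proteins are small acidic proteins without enzyme activity that are made under genotoxic, nutrient and hormonal stress. They bind and activate the kinase Map3k4 upstream of p38 and JNK, and they bind Pcna and the complex of Cdk1 with cyclin B, which halts cells before mitosis. Btg1 and Btg2 bind the Ccr4-Not deadenylase, which shortens the poly(A) tails of mRNAs, and both slow proliferation. Plk2 is a kinase of centriole duplication, Eda2r is the receptor of the A2 form of ectodysplasin in the tumor necrosis factor receptor family, and Mdm2 is the ubiquitin ligase that marks p53 for destruction. Gadd45a, Btg2, Plk2, Eda2r and Mdm2 are textbook target genes of p53. In wasting muscle of mice, Gadd45a is known to act downstream of Atf4, and Eda2r signals through the kinase Nik, the product of Map3k14. Fat, liver and muscle of adult mice hold few dividing cells, and the bulk tissue values used here cannot tell fewer cells of a type from less RNA per cell.

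The start regions of 6 of the genes are printed to show which short motifs they share and which they do not: the 2 genes with the largest rises in SM (Eda2r and Btg2), Gadd45a and Gadd45g as family members that behaved differently across tissues, Plk2 as the gene that fell in every tissue, and Mdm2 as the p53 target that in turn controls p53. Each is the stretch of 250 bases directly before the start site in RefSeq (build GRCm38.p6), read 5′ to 3′ on the strand of the gene. For Eda2r, the 25 bases nearest the start site lie within another annotated transcript and were left out, leaving 225 bases. Capitals mark matches on either strand to the octamer ATTTGCAT, the CCAAT box, the TATA box TATAAA, the cyclic AMP response element TGACGTCA and the p53 decamer.
Gadd45a, chr6:67037408-67037657, minus strand: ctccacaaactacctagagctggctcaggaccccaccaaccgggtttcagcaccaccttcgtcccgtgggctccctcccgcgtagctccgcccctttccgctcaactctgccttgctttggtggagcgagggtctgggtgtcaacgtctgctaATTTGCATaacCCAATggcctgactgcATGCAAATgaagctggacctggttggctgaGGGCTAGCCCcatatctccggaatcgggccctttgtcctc
Gadd45g, chr13:51846425-51846674, plus strand: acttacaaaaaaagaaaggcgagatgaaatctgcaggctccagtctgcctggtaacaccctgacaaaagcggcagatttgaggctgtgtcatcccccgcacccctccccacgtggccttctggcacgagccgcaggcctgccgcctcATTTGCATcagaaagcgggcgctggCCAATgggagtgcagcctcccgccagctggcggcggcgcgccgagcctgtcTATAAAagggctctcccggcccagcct
Eda2r, chrX:97377235-97377459, minus strand: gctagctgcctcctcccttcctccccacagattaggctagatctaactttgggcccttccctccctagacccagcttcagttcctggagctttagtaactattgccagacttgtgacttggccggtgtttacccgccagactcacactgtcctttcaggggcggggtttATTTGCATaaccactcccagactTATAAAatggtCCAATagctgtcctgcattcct
Btg2, chr1:134079156-134079405, minus strand: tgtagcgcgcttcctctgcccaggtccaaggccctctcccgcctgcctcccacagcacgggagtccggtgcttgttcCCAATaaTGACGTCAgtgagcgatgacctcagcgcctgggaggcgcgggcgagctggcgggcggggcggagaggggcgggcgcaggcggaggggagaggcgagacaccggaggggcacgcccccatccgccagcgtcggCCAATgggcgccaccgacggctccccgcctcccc
Plk2, chr13:110394794-110395043, plus strand: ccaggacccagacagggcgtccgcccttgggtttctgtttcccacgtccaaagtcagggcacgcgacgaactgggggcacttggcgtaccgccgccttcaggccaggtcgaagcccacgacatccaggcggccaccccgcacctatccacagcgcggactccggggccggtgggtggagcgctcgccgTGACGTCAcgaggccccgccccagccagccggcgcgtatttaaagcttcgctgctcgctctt
Mdm2, chr10:117710759-117711008, minus strand: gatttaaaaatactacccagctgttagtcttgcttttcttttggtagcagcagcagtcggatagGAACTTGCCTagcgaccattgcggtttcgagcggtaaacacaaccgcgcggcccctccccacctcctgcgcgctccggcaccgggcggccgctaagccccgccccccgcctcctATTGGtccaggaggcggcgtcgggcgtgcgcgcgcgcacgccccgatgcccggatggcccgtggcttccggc

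Among these windows, the octamer, a site bound by the factor Oct-1 in the human GADD45A gene, was present in Gadd45a, Gadd45g and Eda2r, which is 3 of the 8 genes, against 1.60% of all 32851 windows of 250 bases in the table. Gadd45a held it once in each orientation, from 97 to 90 and from 70 to 63 bases before the start, with a CCAAT box between them. Gadd45g carried 1 octamer from 103 to 96 bases and Eda2r 1 from 81 to 74 bases before the start, and in both a CCAAT box and a TATA box stood nearer to the start. The Eda2r distances count the 25 bases that are not printed. The cyclic AMP response element, the site of Creb and related factors, was present in Btg2 (166 to 159 bases before the start) and Plk2 (62 to 55 bases), against 1.55% of all windows. The p53 decamer matched in Gadd45a and Mdm2, against 7.13% of all windows. CCAAT boxes stood in 7 of the 8 genes, all but Plk2, against 33.8% of windows, and TATAAA in Gadd45b, Gadd45g, Btg1 and Eda2r against 12.4%. The FoxO site GTAAACA was found in Btg1, Eda2r and Mdm2 (3.17% of windows) and the E-box CACGTG in Gadd45b and Gadd45g (6.02%), while AGAACA, part of the site of the glucocorticoid receptor, was in none of the 8 (16.1%). The p53 decamer is a single copy of the repeat of which a full p53 site has a pair. Matches of different motifs did not overlap each other. The motifs were picked after the sequences had been read, and a match of letters is a description, not a bound site.

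**Figure D1:**
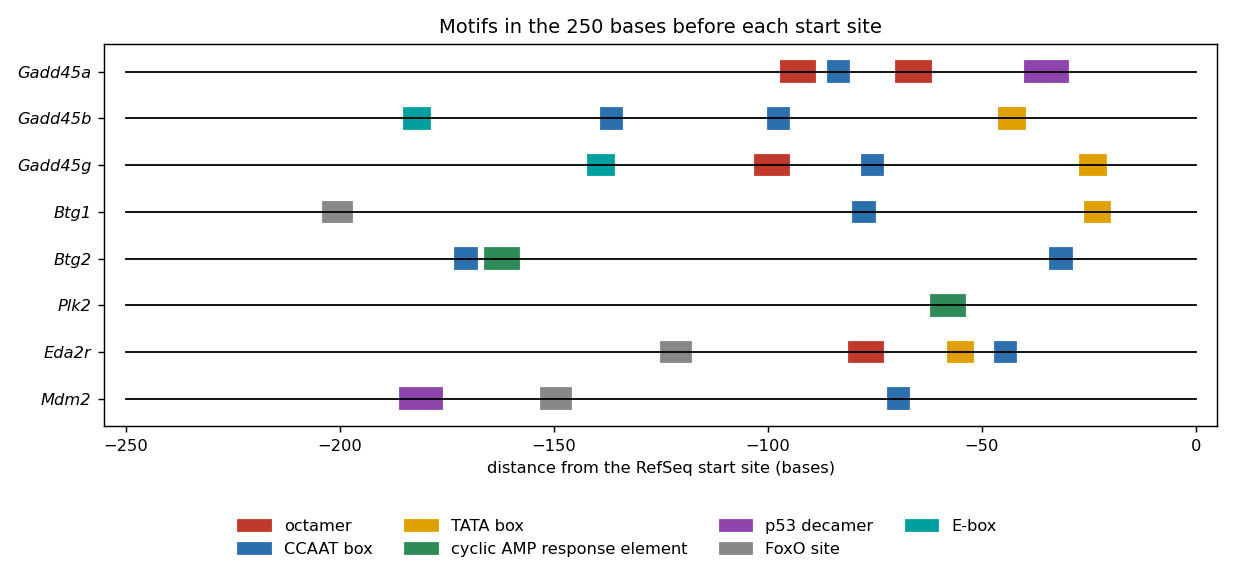
Motif matches in the 250 bases before the RefSeq start site of each of the 8 genes; the x axis is the distance from the start site in bases and each colored block is 1 match on either strand. Octamers (red) stand in Gadd45a, Gadd45g and Eda2r, cyclic AMP response elements (green) in Btg2 and Plk2, and Plk2 is the only row without a CCAAT box (blue).

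Before any comparison, 2 arrays were set aside because their values stood apart from their groups: fasted SM 5, with a mean correlation of 0.98 with the other fasted SM arrays against 0.991 to 0.992 for the others, and fed LIV 4, with 0.987 against 0.991 to 0.993. Fasted SM 5 also had a mean of 7.81 over 8 lymphocyte markers, where the other fasted SM arrays had 3.82 to 4.00 and fed SM arrays 3.87 to 4.06. All 30 arrays, and the set without fasted SM 1 in place of fasted SM 5, were run as alternatives, and values of the left-out arrays are given for some genes. Fed LIV 4 also read 10.16 for Btg1, 7.52 for Btg2 and 7.50 for Mdm2. With all 30 arrays their LIV changes were -0.07, -0.22 and 0.20, and none passed the threshold given below. Single values are listed in the order of the replicate numbers, which only name the mice. The remaining 28 arrays carried the markers of their labelled tissue: 9 hepatocyte markers averaged 12.0 to 12.2 in LIV and 4.06 to 5.18 in the other tissues, 10 muscle fibre markers 12.5 to 12.6 in SM and 4.24 to 5.37 elsewhere, and 8 adipocyte markers 11.2 to 11.5 in WAT. SM samples were uneven in their fibre and fat content, since 7 slow-fibre markers averaged 8.34 to 9.86 in fasted SM and 5.39 to 10.2 in fed SM, and the adipocyte markers averaged 8.03 to 8.72 in fasted SM and 7.70 to 9.37 in fed SM. Groups were compared with limma over all 28815 probe sets, and a gene was said to have risen or fallen at a Benjamini-Hochberg adjusted p under 0.05 together with a change of at least 1.3-fold.

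Of the 8 genes, 5 rose and 1 fell in fasted SM, 4 rose and 2 fell in fasted WAT, and 2 rose and 1 fell in fasted LIV. Over all probe sets, 11.9% changed by the same rule in SM (6.35% up and 5.52% down), 13.2% in WAT (6.93% up and 6.23% down) and 6.55% in LIV (3.12% up and 3.43% down). Rises made up 53.5% of all calls in SM, and 65.6% with the arrays centred on their medians, a setting under which the calls of the 8 genes were the same. The median change of the 8 genes was 0.83 in SM, 0.27 in WAT and 0.06 in LIV, next to medians of 0.00, 0.01 and 0.03 over all probe sets. Gadd45g rose in all 3 tissues, as did 0.323% of probe sets, and Plk2 fell in all 3, as did 0.281%. Gadd45a fell in WAT and rose in SM, and 1.03% of probe sets changed in opposite directions in 2 tissues. Fasted and fed arrays did not overlap for 7 of the 8 genes in SM, 6 in WAT and 3 in LIV, against 19.4%, 18.0% and 14.6% of all probe sets.

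**Figure D2:**
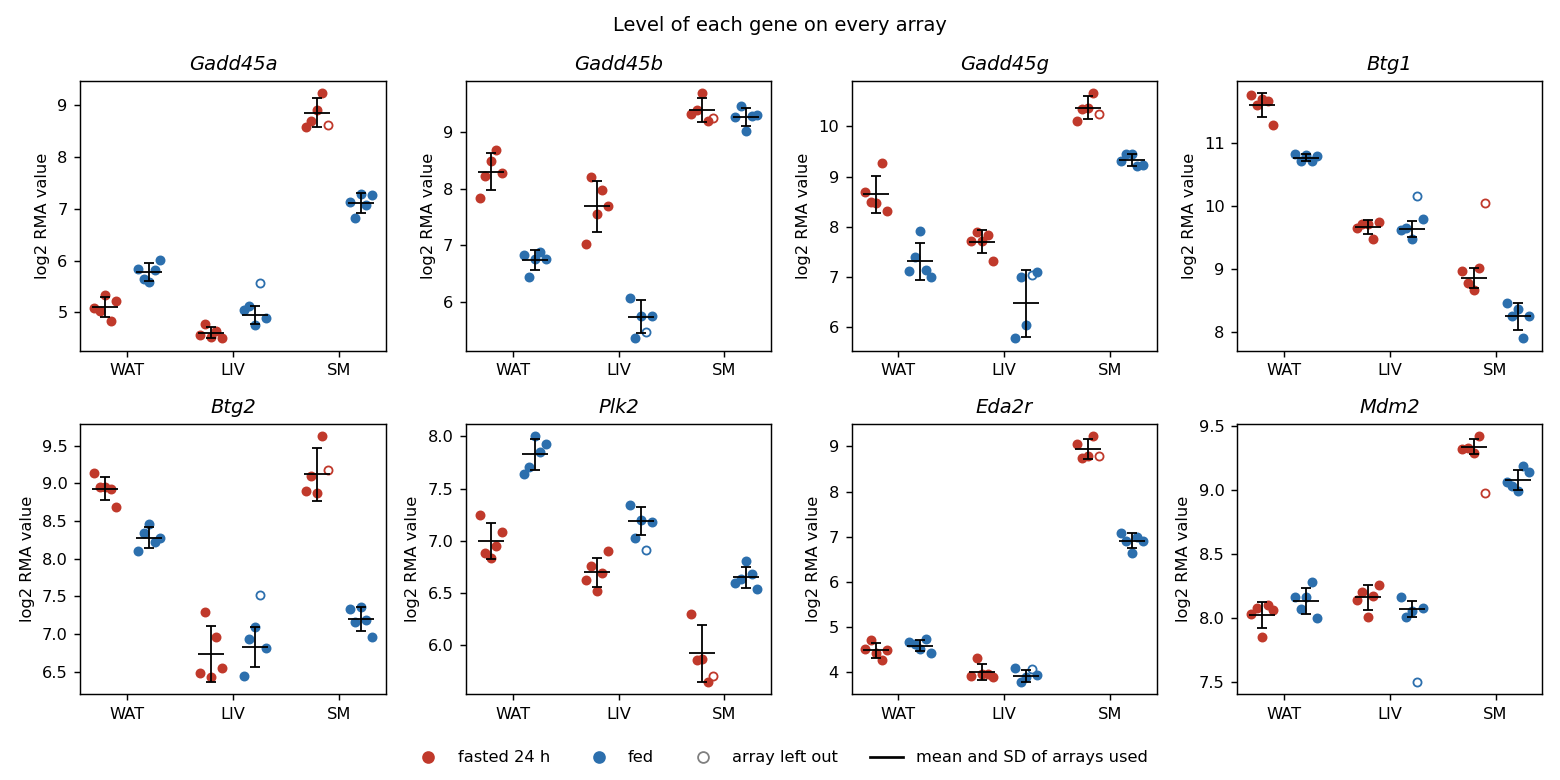
Level of each of the 8 genes on every array (y axis, log2 RMA value, own scale for each gene) in WAT, LIV and SM; red points are fasted and blue points fed mice, open points are the 2 arrays left out, and bars are the mean and SD of the 4 or 5 arrays used. Red lies above blue in all 3 tissues for Gadd45g and below it in all 3 for Plk2, while Gadd45a lies below in WAT and above in SM.

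Gadd45a, known as the p53-regulated founder of its family and as an inducer of muscle atrophy, moved in opposite directions in fat and muscle. In SM it read 8.58, 8.69, 8.90 and 9.22 on the 4 fasted arrays, against 7.13, 6.81, 7.28, 7.06 and 7.26 on the 5 fed arrays. The lowest fasted muscle stood well above the highest fed muscle, and the change of 1.74 (SE 0.12), a 3.33-fold rise, had an adjusted p of 1.99e-11. In WAT the fasted arrays read 5.08, 5.03, 5.33, 4.83 and 5.23, against 5.84, 5.64, 5.59, 5.81 and 6.02 in fed WAT. All fasted fat pads lay below all fed ones, a 1.60-fold fall (change -0.68, SE 0.11, adjusted p 3.78e-05). The fasted WAT mean of 5.10 was dim, that is under 5.25, the median level of all probe sets, so this fold rests on values near the array medians. In LIV the levels were 4.57, 4.77, 4.53, 4.65 and 4.51 in fasted mice, against 5.04, 5.13, 4.75 and 4.89 in fed mice. The highest fasted liver (4.77) passed the lowest fed liver (4.75), both groups were dim, and the difference of -0.34 (SE 0.12, adjusted p 0.0584, 95% interval -0.59 to -0.10) did not pass the threshold. The fed LIV array that was set aside read 5.56, above all others, and with all 30 arrays the difference passed (-0.47, adjusted p 0.0176), as it did without fed LIV 3 (-0.41, adjusted p 0.0381). The change in SM exceeded that in WAT by 2.42 (SE 0.17, adjusted p 5.77e-11) and that in LIV by 2.08 (SE 0.17, adjusted p 1.33e-09). Over all probe sets, the change differed between SM and WAT for 17.1% and between SM and LIV for 16.4%.

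Gadd45b, an immediate early member of the family known as a target of NF-kB and of TGF-beta signaling, showed the reverse distribution over tissues. In LIV it read 7.03, 8.21, 7.55, 7.97 and 7.70 in fasted mice, against 6.08, 5.36, 5.75 and 5.76 in fed mice, so that the lowest fasted liver stood well above the highest fed one. The rise of 1.95 (SE 0.18, adjusted p 8.74e-09) was 3.87-fold and the largest of the 8 genes in LIV. In WAT the levels were 7.83, 8.22, 8.48, 8.68 and 8.28 after fasting, against 6.83, 6.45, 6.76, 6.88 and 6.76 in fed mice, again without overlap, with a 2.95-fold rise (1.56, SE 0.17, adjusted p 5.26e-08). In SM the fasted arrays read 9.31, 9.38, 9.68 and 9.20, against 9.27, 9.45, 9.02, 9.28 and 9.30 in the fed arrays. These overlapped, and the difference of 0.13 (SE 0.18, adjusted p 0.689) had a 95% interval of -0.24 to 0.50. The change in SM was smaller than that in WAT (difference -1.43, SE 0.25, adjusted p 1.21e-04) and smaller than that in LIV (difference -1.82, SE 0.25, adjusted p 7.46e-06). In fed mice Gadd45b averaged 9.26 ± 0.16 (SD, n = 5) in SM, 6.74 ± 0.17 (n = 5) in WAT and 5.74 ± 0.29 (n = 4) in LIV, and the highest fasted WAT (8.68) and LIV (8.21) arrays lay below the lowest fed SM array (9.02).

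Gadd45g, a cytokine-inducible member, rose in every tissue. In WAT it read 8.70, 8.50, 8.48, 9.27 and 8.32 in fasted mice, against 7.11, 7.39, 7.92, 7.13 and 7.00 in fed mice. The gap between the groups was 0.40 at its narrowest, since fed WAT 3 was high, and the rise was 2.53-fold (1.34, SE 0.21, adjusted p 1.58e-05). In LIV the fasted arrays read 7.72, 7.90, 7.72, 7.83 and 7.31, against 5.77, 7.00, 6.04 and 7.09 in fed livers, which formed a lower and a higher pair. The 2.33-fold rise (1.22, SE 0.22, adjusted p 3.03e-04) separated the groups, although fasted LIV 5 (7.31) lay close to fed LIV 5 (7.09) and to the fed array set aside (7.04). In SM the levels were 10.11, 10.34, 10.37 and 10.66 after fasting, against 9.30, 9.44, 9.45, 9.21 and 9.22 in fed muscle, a 2.07-fold rise without overlap (1.05, SE 0.22, adjusted p 8.14e-04). The changes differed between tissues by 0.12 to 0.29 in size with standard errors of 0.31 to 0.32, and none of the 3 differences passed the threshold (adjusted p 0.599 to 0.857), which does not show that the rises were alike. Within the family, Gadd45a and Gadd45g thus rose in muscle, and Gadd45b and Gadd45g in fat and liver.

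Btg1, an antiproliferative gene of quiescent cells, rose in fat and muscle. In WAT it read 11.77, 11.61, 11.70, 11.66 and 11.28 in fasted mice, against 10.82, 10.72, 10.81, 10.71 and 10.79 in fed mice, where the 5 arrays spanned only 0.11. The groups were apart, with a 1.78-fold rise (0.83, SE 0.09, adjusted p 1.09e-07). In SM the levels were 8.97, 8.78, 8.67 and 9.02 in fasted muscle, against 8.46, 8.26, 8.36, 7.90 and 8.25 in fed muscle. This was a 1.53-fold rise without overlap (0.61, SE 0.10, adjusted p 3.12e-05), and the set-aside array fasted SM 5, the one with lymphocyte transcripts, read 10.05, above all the others. With all 30 arrays the change in SM was 0.85 (adjusted p 3.15e-04). In LIV the fasted arrays read 9.66, 9.72, 9.72, 9.48 and 9.75, against 9.62, 9.65, 9.48 and 9.80 in fed liver, which overlapped throughout, and the difference of 0.03 (SE 0.10, adjusted p 0.894) had a 95% interval of -0.17 to 0.24. The change in LIV was smaller than in WAT (WAT minus LIV 0.80, SE 0.14, adjusted p 1.08e-04) and smaller than in SM (SM minus LIV 0.58, SE 0.14, adjusted p 0.00421). Between WAT and LIV, the change differed for 17.7% of all probe sets.

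Btg2, the p53-inducible relative, changed most in muscle. In SM it read 8.90, 9.10, 8.87 and 9.62 in fasted mice, against 7.33, 7.16, 7.36, 7.19 and 6.96 in fed mice. The gap between the groups was 1.51 at its narrowest, with a 3.80-fold rise (1.92, SE 0.16, adjusted p 5.31e-10). In WAT the levels were 9.13, 8.95, 8.95, 8.92 and 8.69 in fasted fat, against 8.10, 8.34, 8.46, 8.22 and 8.27 in fed fat. The rise was smaller, 1.57-fold (0.65, SE 0.15, adjusted p 0.00154), and again without overlap. In LIV the fasted arrays read 6.48, 7.29, 6.43, 6.96 and 6.55, against 6.45, 6.94, 7.10 and 6.81 in the fed arrays, where the groups overlapped and the difference was -0.08 (SE 0.16, adjusted p 0.812, 95% interval -0.41 to 0.24). The 3 tissues differed pairwise in this change: SM from LIV by 2.01 (SE 0.23, adjusted p 2.77e-07), SM from WAT by 1.28 (SE 0.22, adjusted p 1.15e-04) and WAT from LIV by 0.73 (SE 0.22, adjusted p 0.0192). The last of these did not pass without fed LIV 3 (0.64, adjusted p 0.0542).

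Plk2, a serum-inducible kinase that acts in centriole duplication in early cell cycle, fell in every tissue. In WAT it read 7.25, 6.88, 6.84, 6.95 and 7.08 in fasted mice, against 7.64, 7.71, 8.0, 7.85 and 7.93 in fed mice, a 1.78-fold fall (-0.83, SE 0.10, adjusted p 3.05e-07). In SM the levels were 6.30, 5.86, 5.87 and 5.65 in fasted muscle, against 6.60, 6.63, 6.81, 6.68 and 6.54 in fed muscle, a 1.66-fold fall (-0.73, SE 0.11, adjusted p 6.29e-06). In LIV the fasted arrays read 6.62, 6.76, 6.52, 6.69 and 6.90, against 7.34, 7.03, 7.20 and 7.18 in the fed arrays, a 1.41-fold fall (-0.49, SE 0.11, adjusted p 0.00182). No fasted array reached the lowest fed array of its tissue, although the fed LIV array set aside (6.91) was level with the highest fasted liver (6.90). Differences between tissues in this fall were at most 0.34 in size (SE 0.15), and their adjusted p ranged from 0.120 to 0.741.

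Eda2r, the ectodysplasin A2 receptor, rose in muscle more than any other of the 8 genes in any tissue with the 28 arrays, and by as much as Gadd45b in LIV (2.01 each) with all 30. In SM it read 9.05, 8.75, 8.79 and 9.22 in fasted mice, against 7.09, 6.90, 6.64, 7.00 and 6.90 in fed mice. The rise of 2.05 (SE 0.11, adjusted p 6.31e-14) was 4.13-fold, and the gap between the lowest fasted and highest fed muscle was 1.66. In WAT the levels were 4.52, 4.71, 4.43, 4.27 and 4.49 in fasted fat, against 4.67, 4.62, 4.51, 4.73 and 4.43 in fed fat, and in LIV they were 3.91, 4.32, 3.96, 3.96 and 3.89 in fasted livers, against 4.09, 3.79, 3.89 and 3.93 in fed livers. In both tissues the groups overlapped, at values below the medians of all arrays (4.915 to 5.156). The differences were -0.11 in WAT (SE 0.10, adjusted p 0.517, 95% interval -0.32 to 0.10) and 0.08 in LIV (SE 0.11, adjusted p 0.697, 95% interval -0.13 to 0.30). The change in SM exceeded that in WAT by 2.15 (SE 0.15, adjusted p 4.78e-11) and that in LIV by 1.96 (SE 0.15, adjusted p 3.83e-10).

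Mdm2, both a target and the main antagonist of p53, passed the full threshold in no tissue. In SM it read 9.32, 9.33, 9.29 and 9.42 on the 4 fasted arrays, against 9.06, 9.03, 8.99, 9.19 and 9.14 on the fed arrays. These did not overlap and had an adjusted p of 0.00331, but the difference of 0.26 (SE 0.06, 95% interval 0.13 to 0.39) was 1.19-fold and below the minimum of 1.3-fold. The set-aside array fasted SM 5 read 8.98, below every fed muscle, and with all 30 arrays the difference was 0.18 (adjusted p 0.187). In WAT Mdm2 read 8.03, 8.08, 7.85, 8.10 and 8.06 after fasting, against 8.16, 8.07, 8.16, 8.28 and 8.0 in fed mice (difference -0.11, SE 0.06, adjusted p 0.201, 95% interval -0.23 to 0.01). In LIV it read 8.14, 8.20, 8.01, 8.17 and 8.26 after fasting, against 8.16, 8.01, 8.05 and 8.08 in fed mice (0.08, SE 0.06, adjusted p 0.481, 95% interval -0.05 to 0.21). Groups overlapped in both tissues. The change in SM exceeded that in WAT by 0.37 (SE 0.09, adjusted p 0.00338), a difference that did not pass with all 30 arrays (0.30, adjusted p 0.160) or with fasted SM 1 left out in place of fasted SM 5 (0.28, adjusted p 0.0712).

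**Figure D3:**
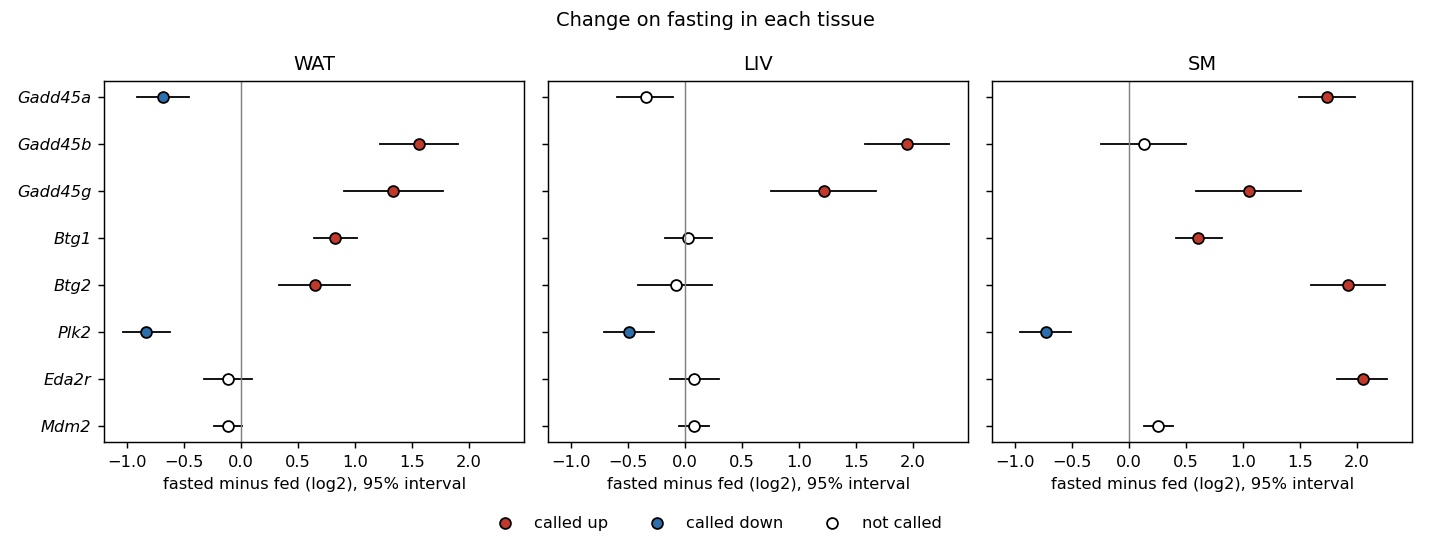
Change of each of the 8 genes in WAT, LIV and SM (x axis, fasted minus fed on the log2 scale); points are limma estimates, bars their 95% intervals, and filled points passed an adjusted p under 0.05 and 1.3-fold (red up, blue down). Eda2r (2.05), Btg2 (1.92) and Gadd45a (1.74) lead in SM, Gadd45b leads in LIV (1.95) and WAT (1.56), and Plk2 lies left of zero in all 3 panels.

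In SM the amount of slow-fibre and adipocyte transcripts varied between arrays, and both were set beside the changes. With the mean of the slow-fibre markers as a covariate within SM, the changes were 1.77 for Gadd45a, 1.02 for Gadd45g, 0.56 for Btg1, 1.92 for Btg2, -0.73 for Plk2, 2.06 for Eda2r and 0.29 for Mdm2. With the mean of the adipocyte markers they were 1.71, 1.05, 0.68, 1.93, -0.70, 2.03 and 0.23 for the same genes, and each of the 8 stayed on its side of the threshold in both fits. In SM, 2 of 8 adipocyte markers fell (Plin1 and Retn) and 1 rose (Plin4). In LIV, 5 of 11 macrophage markers fell on fasting, with marker means of 6.40 to 6.84 in fasted livers and 6.82 to 7.15 in fed livers; Lyz2 fell by 0.89, Adgre1 by 0.78 and C1qb by 0.60. In WAT, 2 of the 11 rose (Cd163 by 1.13 and Cd14 by 0.64), and the Fcgr1 probe set fell by 0.62. In SM, 2 of the 11 rose (Cd163 by 0.73 and Cd68 by 0.52), with marker means of 6.19 to 6.71 in fasted SM and 6.10 to 6.49 in fed SM. Of 8 endothelial markers, 2 fell in SM (Kdr by 0.82 and Egfl7 by 0.39), with means of 8.05 to 8.38 in fasted SM and 8.17 to 8.53 in fed SM. Among the tissue markers, Acta1 rose in WAT (1.53), as did Tat (0.54), while Cidea fell in WAT (-1.08), and Cidec (2.35) and Plin4 (1.82) rose in LIV. The part of macrophages, endothelial cells and these other transcripts in the changes of the 8 genes was not tested.

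Levels in fed mice were compared between tissues. All 3 Gadd45 genes and Eda2r were highest in fed SM, next in WAT and lowest in LIV, with every neighboring pair past the threshold. Gadd45a in LIV and Eda2r in both WAT and LIV were dim by the limit of 5.25, and no detection calls were used, so the order of WAT over LIV rests on levels not shown to stand above background for Eda2r in both tissues and for Gadd45a in LIV. Gadd45a stood at 7.11 ± 0.19 in fed SM, 5.78 ± 0.17 in fed WAT and 4.95 ± 0.17 in fed LIV (SD, n = 5, 5 and 4), and Eda2r at 6.91 ± 0.17, 4.59 ± 0.12 and 3.92 ± 0.13 in the same order. Gadd45g stood at 9.32 ± 0.12, 7.31 ± 0.37 and 6.47 ± 0.67. Btg1 and Plk2 had another order, WAT over LIV over SM: Btg1 averaged 10.77 ± 0.05 in fed WAT, 9.64 ± 0.13 in fed LIV and 8.25 ± 0.21 in fed SM, and Plk2 averaged 7.83 ± 0.15, 7.19 ± 0.13 and 6.65 ± 0.10. Btg2 was highest in fed WAT (8.28 ± 0.14), and SM (7.20 ± 0.16) and LIV (6.83 ± 0.27) differed by 0.37 (SE 0.16, adjusted p 0.0475), short of 1.3-fold. Mdm2 was highest in fed SM (9.08 ± 0.08), while WAT (8.13 ± 0.10) and LIV (8.07 ± 0.06) differed by 0.06 (SE 0.06, adjusted p 0.453). In all, fed levels differed between SM and WAT for 8 of the 8 genes (41.7% of all probe sets), between SM and LIV for 7 (42.8%) and between WAT and LIV for 7 (39.4%). After fasting, the Btg2 mean was 9.12 ± 0.35 in SM (n = 4) and 8.93 ± 0.15 in WAT (n = 5), given side by side without a test.

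The pathways around these genes were read from 11 lists written from general knowledge, which leave out the 8 genes themselves. The lists were written with earlier results of these data known, so their counts are a description and not independent evidence. Over all genes, 7.80% rose and 5.78% fell in SM, 7.99% rose and 7.75% fell in WAT, and 3.53% rose and 4.01% fell in LIV. Of 18 p53 targets of arrest, repair and metabolism measured, 7 rose and 1 fell in SM, 8 rose and 1 fell in WAT, and 5 rose in LIV, with list medians of 0.17, 0.10 and 0.11. The mTORC1 inhibitor Ddit4 rose by 4.15 (SE 0.20) in SM, 2.97 (SE 0.19) in WAT and 2.16 (SE 0.20) in LIV. The Cdk inhibitor Cdkn1a rose by 2.15 (SE 0.17) in SM, 1.02 (SE 0.16) in WAT and 3.35 (SE 0.17) in LIV. The sestrin genes Sesn1 (1.92, SM) and Sesn2 (1.32, WAT), the p53 cofactor gene Trp53inp1 (2.44, WAT) and the lipin gene Lpin1 (1.52, LIV) were also among the leaders. The 17 measured p53 targets of cell death were mixed: 3 rose and 3 fell in SM, 3 rose and 4 fell in WAT, and 1 rose in LIV, with medians of -0.02, -0.09 and 0.01. The death receptor gene Fas rose in SM by 0.91, and the ferrireductase gene Steap3 fell by 0.80 in SM and by 0.98 in WAT. Phlda3 rose in SM (0.50) but fell in WAT (-0.91). In WAT the growth factor binding protein gene Igfbp3 rose by 1.16 and Trp53i11 fell by 0.94. Trp53inp2 rose in LIV (0.44) but fell in WAT (-0.70) and in SM (-0.47). Of 14 genes that control p53, 2 rose in SM, the phosphatase gene Ppm1d (0.60) and the p53 relative Trp63 (0.59). In WAT 1 rose and 3 fell, the kinase genes Chek2 (-0.86) and Hipk2 (-0.74) and also Trp63 (-0.44). In LIV Chek2 fell (-0.56).

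Partners of the Gadd45 proteins changed in both directions. Of 13 measured partners and MAP kinases, 2 rose and 3 fell in SM, 1 rose and 1 fell in WAT, and 2 rose in LIV. The p38 kinase kinase gene Map2k6 fell by 1.14 (SE 0.10) in SM and by 1.10 (SE 0.10) in WAT, and rose by 0.75 (SE 0.10) in LIV. The apoptosis signal-regulating kinase gene Map3k5 fell in SM (-0.48) and rose in WAT (0.59) and LIV (0.78). The p38 beta gene Mapk11 fell by 0.74 in SM. Map3k4, the kinase that Gadd45 proteins activate, changed by -0.29 in SM (adjusted p 9.47e-04), short of 1.3-fold, and Pcna rose by 0.48 in SM; both were singled out after their values were seen. Among 8 phosphatases of MAP kinases, Dusp10 fell in SM (-0.56), WAT (-0.87) and LIV (-0.54), and Dusp8 fell in SM (-0.50).

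Among relatives and partners of the other genes, Tob1, Tob2, Cnot6, Pan2, Plk3, Plk4, Eda and Map3k14 passed the threshold in at least 1 tissue. Of 3 further Btg and Tob genes measured, Tob1 fell by 1.03 (SE 0.09) in SM, where Btg1 and Btg2 rose, and Tob2 rose by 0.93 in WAT and 0.55 in SM. Of 15 genes of the Ccr4-Not complex and other Btg partners, Cnot6 fell in SM (-0.55) and Pan2 rose in WAT (0.52), the other 14 in those tissues did not pass, and in LIV 0 of the 15 passed limma's threshold while 4 had an unadjusted p under 0.05. Among 4 other polo-like kinases, Plk4 fell in WAT (-0.43) and Plk3 in LIV (-0.74), and in SM, where Plk2 fell, 0 of the 4 passed limma's threshold and 0 had an unadjusted p under 0.05. In the ectodysplasin pathway, 10 genes measured, the ligand gene Eda rose in LIV by 0.59 (SE 0.11). Map3k14, which encodes Nik, rose in SM by 0.53 (SE 0.07, adjusted p 1.15e-06), where Eda2r rose. The other 9 did not pass in SM, among them Eda (-0.22), Relb (0.12) and Nfkb2 (0.27). Whether the rises of Eda2r and Map3k14 are linked was not tested.

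**Figure D4:**
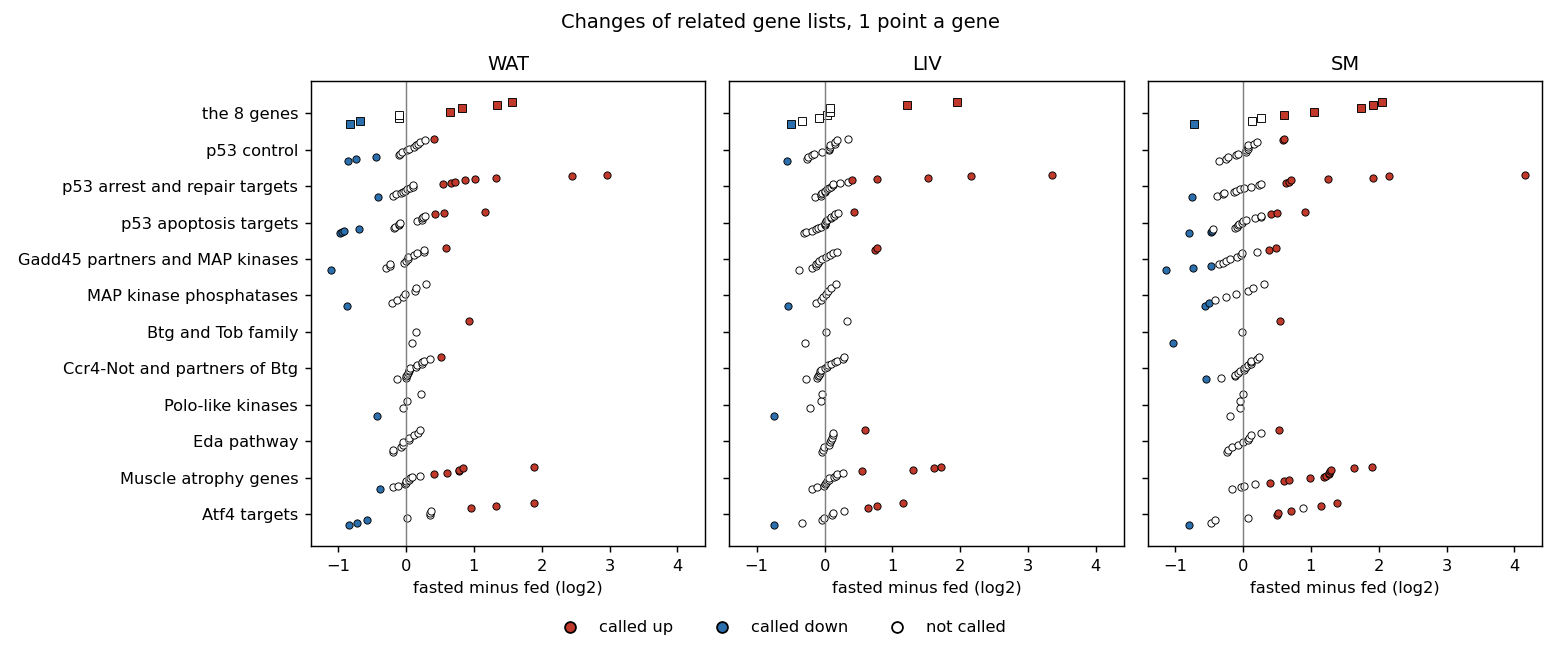
Changes of the 8 genes (squares, top row) and of the genes of 11 related lists (circles, 1 per gene) in WAT, LIV and SM; the x axis is fasted minus fed on the log2 scale, and red and blue mark genes that rose or fell. In SM most of the muscle atrophy genes are red (12 of 16), and in all 3 panels the row of p53 arrest and repair targets reaches furthest right through Ddit4 or Cdkn1a.

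Most of the listed genes known from wasting muscle rose in SM, where Gadd45a and Eda2r rose. Of 16 such genes, 12 rose in SM with a list median of 1.09, 6 rose and 1 fell in WAT (median 0.08), and 4 rose in LIV (median 0.10). The 4 that did not pass in SM were Hdac4 (-0.03), Myog (0.18), Chrna1 (-0.16) and Foxo4 (0.02). The ubiquitin ligase gene Trim63 rose by 1.90 (SE 0.11), the metallothionein gene Mt2 by 1.63 (SE 0.20) and the ankyrin repeat gene Ankrd1 by 1.29 (SE 0.39, with an SD of 1.64 over the 4 fasted arrays) in SM. The F-box gene Fbxo31 rose in WAT by 1.89 and in LIV by 1.3. The metallothionein genes Mt2 (1.72) and Mt1 (1.61) rose more than Fbxo31 in LIV, and in WAT Mt1 rose by 0.84 and the ubiquitin ligase gene Fbxo32 by 0.78. Of 10 genes measured in a list of Atf4 and its targets, 5 rose and 1 fell in SM, 3 rose and 3 fell in WAT, and 3 rose and 1 fell in LIV, with medians of 0.51, 0.35 and 0.12. Cebpb (1.39) and Chac1 (1.15) rose and the asparagine synthetase gene Asns fell (-0.79) in SM, whereas Chac1 rose in WAT (1.88) and fell in LIV (-0.75), and Asns rose in LIV (1.15). Trib3 (0.95) and Sesn2 (1.32) rose in WAT, and Sesn2 also rose in LIV (0.78) and SM (0.71). Atf4 rose by 0.52 in SM (adjusted p 1.38e-05, singled out after its value was seen).

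Patterns across all arrays were compared by Pearson's r over the 28 arrays, which share tissues and diets, so that r mostly reflects the differences between tissues and is given as a description. The gene most like Gadd45a was Eda2r (r = 0.978), followed by the spindle gene Spag5 (0.972) and 6430548M08Rik (0.964); Spag5 rose by 1.11 in SM. Eda2r itself was closest to Napb (0.985), Samd4 (0.979) and Rragb (0.979), which rose in SM by 1.67, 0.83 and 0.54. Mdm2 was closest to Cdkal1 (0.991), Cog6 (0.987) and Trim63 (0.987). Gadd45b followed Abca5 (0.951), which rose in WAT (0.58) and LIV (0.73) and changed by -0.10 in SM, then Tmem186 (0.934) and Ovgp1 (0.928). Gadd45g followed the activin receptor gene Acvr1b (0.950), Mob2 (0.947) and Zfp280d (0.946). Btg1 was closest to Cyp4b1 (0.990; WAT 0.89, LIV -0.01, SM 0.42), Abi1 (0.983) and Diaph2 (0.980). Btg2 was closest to Rassf4 (0.954; SM 1.88), Mks1 (0.953) and Rc3h1 (0.951). Plk2 was closest to the fatty acid synthase gene Fasn (0.930), which changed by -1.73 in SM, -1.59 in WAT and -1.43 in LIV, then Mpv17 (0.929) and Pcdh12 (0.926). Among the 8 genes, Eda2r and Mdm2 correlated at 0.958, Gadd45b and Gadd45g at 0.909, and Btg1 and Mdm2 at -0.780.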

How the data were processed

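Gene expression was measured in 3 tissues of 5 fasted and 5 fed mice on 30 arrays. The deposited log2 values were made by the authors from scanned intensities by RMA (background correction, quantile normalization and probe set summary) in Partek Genomics Suite; versions are not given in the sources used here. Array medians lay between 4.915 and 5.156, 0 columns lacked a sample and 0 pairs of arrays were identical. Intensities before RMA were not used. Precision is limited by the 4 or 5 arrays of each group.

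The 8 genes and all lists were chosen with earlier results of these data known. Genes were named from the platform annotation given (21153 probe sets with 1 symbol, 1867 with several, 5795 not listed), with 0 symbols updated through RefSeq, and a gene was read by its brightest probe set of 1 symbol. Of the genes in 11 pathway and 7 marker lists, 15 had no such probe set and were not analysed here.

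Fed LIV 4 and fasted SM 5 were left out. The study's text names fed LIV 4 and fasted SM 1, and that set was also run. However, the study's SM folds for Plk2 (1.66 down) and Gadd45g (2.07 up) equal those of the main fit, without fasted SM 5. Group means of the 6 groups were fitted with limma 3.58.1 (R 4.3.3; prior degrees of freedom 4.24), with fasted minus fed in each tissue, the differences of these changes between tissues and the fed levels as contrasts. P-values were adjusted by Benjamini-Hochberg over 28815 probe sets; changes and fed levels were called at an adjusted p under 0.05 and 1.3-fold, differences of changes at the adjusted p alone. The fit was tested on simulated data with independent, normal noise at the fitted spread of each probe set. Of probe sets changed 2-fold, 67 of 67 were called in WAT, 62 of 67 in LIV and 65 of 67 in SM. Of those changed 1.5-fold, 60, 59 and 57 of 67 were called in the same order. Calls among unchanged probe sets are not given, so these counts say nothing of false calls. In the lists, up to 3 called genes with the largest change per tissue were named, and for each of the 8 genes the 3 genes of highest Pearson's r. Start regions came from RefSeq (GRCm38.p6), and motifs were counted with Python 3.11.15. Whether mice of the same number are the same animal across tissues is not given in the labels, and the main fit treated all arrays as independent. P-values rest on 1 estimate of spread between mice per probe set, pooled over the 6 groups. They do not measure the spread within 1 tissue alone.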

Additional observations from a re-analysis of the deposited data

Results flagged for a closer look

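For 6 of the 8 genes, the change on fasting differed between tissues by limma's test of the difference (log2 scale, adjusted over all probe sets): 5 of 8 between SM and WAT, 5 between SM and LIV and 2 between WAT and LIV, against 17.1%, 16.4% and 17.7% of all probe sets. Gadd45a changed by 1.74 in SM, -0.68 in WAT and -0.34 in LIV, so that SM differed from WAT by 2.42 and from LIV by 2.08. Gadd45b changed by 0.13 in SM, 1.56 in WAT and 1.95 in LIV, with differences of -1.43 for SM minus WAT and -1.82 for SM minus LIV. Eda2r changed by 2.05 in SM, -0.11 in WAT and 0.08 in LIV, with differences of 2.15 from WAT and 1.96 from LIV. Btg2 changed by 1.92 in SM, 0.65 in WAT and -0.08 in LIV, and each pair of tissues differed: SM minus WAT by 1.28, SM minus LIV by 2.01 and WAT minus LIV by 0.73. Btg1 changed by 0.61 in SM, 0.83 in WAT and 0.03 in LIV, with differences of 0.58 for SM minus LIV and 0.80 for WAT minus LIV. Mdm2 changed by 0.26 in SM and -0.11 in WAT, a difference of 0.37, which did not pass with all 30 arrays (0.30, adjusted p 0.160) or with fasted SM 1 left out in place of fasted SM 5 (0.28, adjusted p 0.0712).

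A single array stood apart from its group in 2 cases by Dixon's test, which chance alone meets in about 1 of 20 groups, and 48 groups of values were looked at. Eda2r in fasted LIV 2 read 4.32, where the other fasted livers read 3.89 to 3.96, and Mdm2 in fasted WAT 3 read 7.85, where the other fasted fat pads read 8.03 to 8.10. In both tissues fasted and fed levels of these genes overlapped.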

How the results depend on the processing

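The other settings were array sets and weights, no moderation, single tissues, normalization, probe set filters, thresholds, blocks and covariates in SM. The covariates were added after the data were seen. Of 408 values of fasted minus fed under these settings, 405 kept their side of the threshold, as did 671 of 672 with 1 array left out. Many of these values could hardly move, so the counts overstate how far the calls were tested. Leaving out an array shifts only changes of its own tissue, and elsewhere alters only the estimated spread. The covariates in SM likewise leave the changes in WAT and LIV as they were. Each gene has 1 probe set, so averaging probe sets changes only the adjustment. No called change reversed. Direction was not counted for changes that were not called: Btg1 in LIV changed by 0.03 in the main fit and by -0.07 with all 30 arrays. Counts of genes called were 6 in WAT under all settings, 2 to 4 in LIV (3 to 4 with 1 array left out) and 6 to 7 in SM (6). The exceptions were Gadd45a in LIV, called with all 30 arrays (-0.47) and without fed LIV 3 (-0.41), Plk2 in LIV, lost at a minimum of 1.5-fold (-0.49), and Mdm2 in SM, called with no minimum fold (0.26). Of the differences between tissues, 380 of 384 and, with 1 array left out, 671 of 672 stayed on their side. Genes whose change differed between WAT and LIV numbered 1 at a false discovery rate of 1% and 1 to 2 with 1 array left out, against 2, since Btg2 was lost. Mdm2 in SM against WAT was lost with all 30 arrays (0.30) and with fasted SM 1 left out in place of fasted SM 5 (0.28), a set that added Plk2 in SM against LIV (-0.39, adjusted p 0.0361). The causes were not tested. Of fed levels, 380 of 384 and 670 of 672 stayed; Btg2 and Plk2 in SM against LIV lie near the threshold. In their deviations, same-numbered arrays correlated at -0.252 to 0.163 between fasted and fed mice and at -0.122 to 0.177 between tissues of one diet, so the numbers were not taken to pair arrays. With the replicate number as a block, 6, 3 and 6 genes were called in WAT, LIV and SM, the fed difference of Btg2 between SM and LIV was called (0.65, adjusted p 0.0493) and that of Plk2 was not (-0.40, adjusted p 0.130). Over all probe sets, calls numbered 1996 up and 1796 down in WAT, 898 and 989 in LIV, and 1829 and 1591 in SM; with no minimum fold they were 4231 and 3436, 2092 and 1721, and 3415 and 3101, and at 1.5-fold 843 and 800, 373 and 452, and 791 and 637. Fits of each tissue on its own hold no contrast between tissues, so the differences between tissues and the fed levels were not run under that setting. Probe sets with means under 5.25 count as dim, which limits what can be said of Eda2r in WAT and LIV and of Gadd45a in LIV and fasted WAT; both genes passed the filter on dim probe sets through their SM levels.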
